A study of Mus musculus with 12 samples.

Results

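Meiotic strand exchange was followed through 6 genes, Dmc1, Psmc3ip, Mnd1, Spata22, Brca2 and Trip13, which were taken by symbol from the 22549 genes quantified in 12 RNA-seq libraries of cultured mouse male germ cells. Each of the 6 symbols occurred on a single line in every library. The members were chosen by name, with earlier results of these data known.

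All cells were spermatogonial stem cells (mSSC), which sustain sperm production in the testis, from wild-type DBA/C57 F1 male mice aged 5 to 7 days, or were made from such cells in culture. In the treatment experiment, mSSC held on laminin overnight were given vehicle, retinoic acid at 100 nM (RA), or the same dose of RA together with the protein synthesis inhibitor cycloheximide at 0.25 mg/ml (RA with CHX), each for 24 h. Cycloheximide alone was not among the groups, so an effect of RA in its presence and an effect of cycloheximide itself cannot be told apart. In the induction experiment, untreated mSSC were set beside GFP-labelled mSSC that were induced on pup Sertoli cells inactivated with mitomycin, the somatic cells that nurse germ cells. Of the GFP-positive cells, those with c-KIT at the surface on day 3 were sorted as induced differentiating spermatogonia (idSG). The induced spermatocytes (iSC) are the GFP-positive cells without c-KIT on day 6. GFP-labelled stem cells that lack surface c-KIT and had not been induced would also pass that gate. Each group had 2 biological replicates, and every mean ± SD below is over n = 2 libraries. P-values therefore measure only the spread between these libraries.

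In meiotic prophase the SPO11 nuclease complex cuts DNA, the ends are resected, and the single strands formed are coated first by RPA and then by recombinase, which searches for the homologous chromosome and invades it. DMC1 is the recombinase made for meiosis. BRCA2 loads it, the PSMC3IP and MND1 heterodimer (HOP2 and MND1) helps the loaded filament to capture and invade its target, SPATA22 works with MEIOB on RPA-coated single strands, and TRIP13 is an AAA+ ATPase that remodels HORMA-domain proteins, among them HORMAD1 and HORMAD2 on meiotic chromosome axes and MAD2 in the mitotic checkpoint. In mice, loss of Dmc1, Psmc3ip, Mnd1 or Spata22 arrests spermatocytes in prophase.

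The promoters of the genes with the largest rises and falls in iSC are printed here because the members took opposite directions there. Each line holds the 250 bases before the RefSeq start on the gene's own strand, 5′ to 3′, from GRCm38.p6. The deposited values were made on mm9, so these coordinates belong to the reference and not to the deposited files. Capitals mark any match, on either strand, to the E2F-type motif GCGGGAA or its variant TTGGCGC, to the CCAAT box, to the CRE core TGACGT, to AGGTCA, the hexamer that retinoid and related nuclear receptors bind, or to the GC box GGGCGG. The windows are chr15:79605110-79605359 on the minus strand for Dmc1, chr11:73329491-73329740 on the plus strand for Spata22, chr11:101095436-101095685 on the minus strand for Psmc3ip and chr13:73937768-73938017 on the minus strand for Trip13.
Dmc1: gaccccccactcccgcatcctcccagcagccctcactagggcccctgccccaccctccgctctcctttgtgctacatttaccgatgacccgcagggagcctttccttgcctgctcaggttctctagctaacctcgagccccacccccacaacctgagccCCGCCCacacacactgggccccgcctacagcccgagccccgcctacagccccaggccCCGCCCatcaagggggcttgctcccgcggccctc
Spata22: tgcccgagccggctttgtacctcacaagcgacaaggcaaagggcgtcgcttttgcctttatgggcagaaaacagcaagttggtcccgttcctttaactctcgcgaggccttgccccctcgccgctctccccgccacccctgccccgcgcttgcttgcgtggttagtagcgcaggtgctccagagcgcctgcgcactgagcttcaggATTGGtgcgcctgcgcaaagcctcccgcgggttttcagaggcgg
Psmc3ip: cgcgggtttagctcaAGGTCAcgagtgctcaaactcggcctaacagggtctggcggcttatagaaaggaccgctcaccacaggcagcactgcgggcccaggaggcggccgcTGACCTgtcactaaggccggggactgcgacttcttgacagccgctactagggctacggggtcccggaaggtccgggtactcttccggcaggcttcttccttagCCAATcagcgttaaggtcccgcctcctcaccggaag
Trip13: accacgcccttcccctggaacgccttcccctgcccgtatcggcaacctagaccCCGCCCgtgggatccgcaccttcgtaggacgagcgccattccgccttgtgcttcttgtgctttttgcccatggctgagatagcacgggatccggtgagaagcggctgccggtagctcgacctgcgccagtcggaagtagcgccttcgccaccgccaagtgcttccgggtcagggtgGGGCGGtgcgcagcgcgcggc
The GC box occurred in the windows of Dmc1, Mnd1 and Trip13, and in 32.7% of all 32851 RefSeq promoter windows of that length. CCAAT occurred in those of Psmc3ip and Spata22, against 33.8% of all windows. AGGTCA occurred in the Psmc3ip window alone among the 6, as 2 matches, against 14.0% of all windows. The Brca2 window held GCGGGAA (3.82% of all windows) and TGACGT on both strands in overlapping matches (6.47% of all windows). TTGGCGC (1.97%), CACGTG (the E-box, 6.02%) and CCTCAG (22.3%) occurred in none of the 6. These are matches of letters, and no shared motif set the rising genes apart from the falling ones.

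FPKM is a level per transcript length and per library size, so levels of different genes can be set beside each other. Library sums of FPKM ran from 459580 to 540064, with 11872 to 12510 genes at 1 FPKM or more. All libraries held the germ cell transcripts Ddx4 (145 to 238 FPKM) and Dazl (409 to 669 FPKM). In the untreated mSSC, the stem cell transcript Gfra1 stood at 114 and 82.0 FPKM. The transcript of the sorted protein, Kit, was at 1.88 and 2.42 FPKM in mSSC, 105 and 65.9 FPKM in idSG and 9.75 and 4.04 FPKM in iSC. Sertoli cell transcripts were more abundant in the induced groups. The summed level of the 10 of 11 listed Sertoli genes found in the files was 6.19 and 8.56 FPKM in mSSC, 409 and 1004 FPKM in idSG and 1456 and 2389 FPKM in iSC. In the treatment libraries it was 6.08 to 11.8 FPKM, and Fshr was listed at 0 in both libraries of vehicle, RA, RA with CHX and mSSC. Clu alone gave 292 and 743 FPKM of the idSG sums and 1212 and 2111 FPKM of the iSC sums. From idSG to iSC the means of Gata4 (31.5 to 63.1 FPKM) and Amhr2 (30.6 to 56.3 FPKM) rose. The mean of Sox9 was 18.9 and 19.5 FPKM in these groups, and that of Wt1 52.9 and 45.7 FPKM. The iSC libraries differed from each other, since replicate 2 held more of the stem cell transcripts Gfra1 (21.7 against 1.23 FPKM), Zbtb16 (32.2 against 3.76 FPKM) and Id4 (8.46 against 1.88 FPKM) and less of the meiotic inducer Stra8 (121 against 358 FPKM). The fold changes from mSSC to iSC of the members and meiotic genes described as rising are therefore also given without replicate 2. In such bulk samples, fewer cells that express a gene and less RNA per cell cannot be told apart.

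The untreated stem cells already carried transcripts of all 6 genes, at unequal levels. In mSSC, Trip13 stood highest at 49.7 and 43.6 FPKM in the replicates, followed by Psmc3ip at 43.7 and 38.5 FPKM. These neighbours overlapped between libraries. Dmc1 (22.1 and 16.9 FPKM), Brca2 (18.5 and 16.3 FPKM) and Mnd1 (14.0 and 16.1 FPKM) formed a middle group in which Dmc1 and Brca2 overlapped. Spata22 was far below them, at 1.69 and 1.54 FPKM. In vehicle-treated mSSC the order was the same at both ends, with Trip13 at 45.3 and 43.1 FPKM and Spata22 at 1.66 and 1.52 FPKM.

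**Figure D1:**
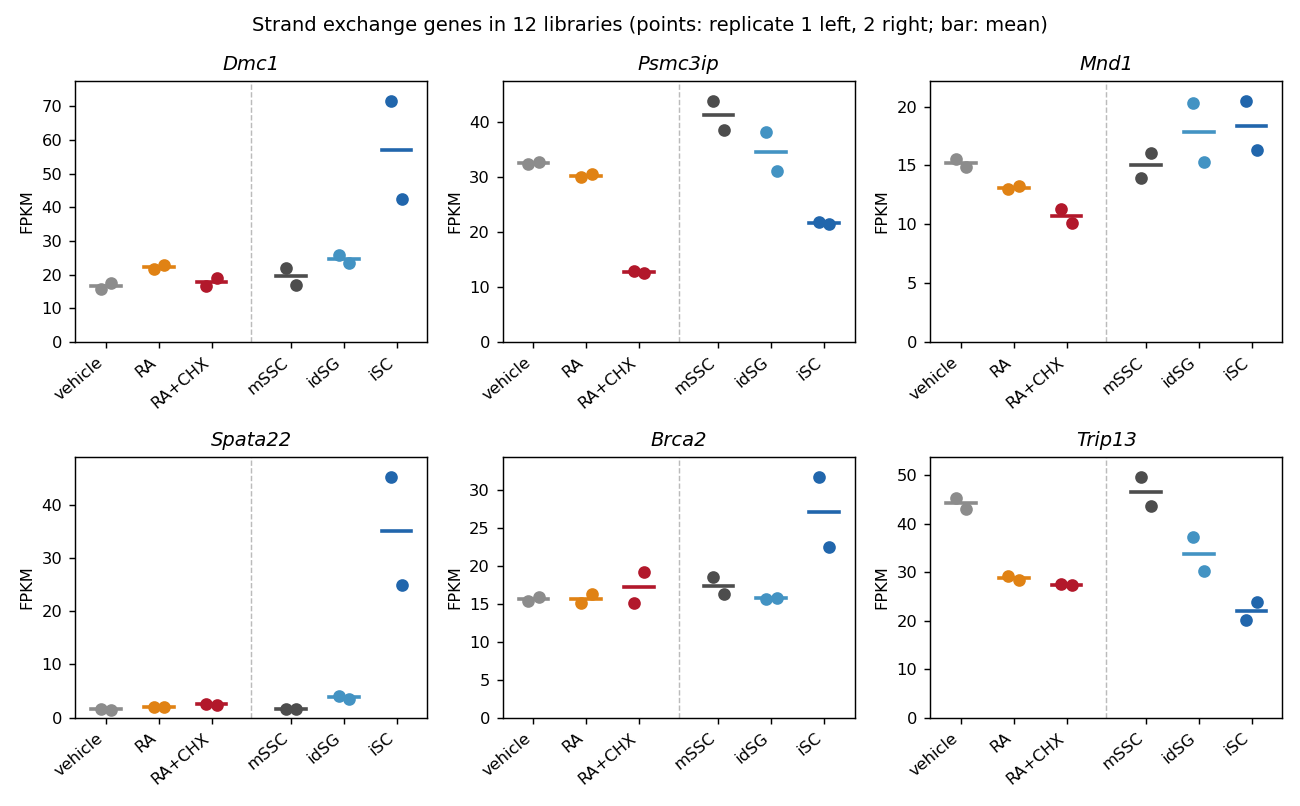
Level in FPKM (vertical axes, linear from 0) of each of the 6 genes in every library of the 6 groups, with replicate 1 to the left, replicate 2 to the right and a bar at the mean. The dashed line parts the treatment from the induction experiment; Spata22 lies between 1.52 and 4.11 FPKM in every group but iSC, where it reaches 45.2 and 24.8 FPKM.

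In iSC, 3 of the 6 genes rose and 2 fell against mSSC. Spata22 and the recombinase gene Dmc1 rose most, Brca2 rose less, Psmc3ip and Trip13 fell to roughly the same level, and Mnd1 did not pass the test. A gene was called when limma's adjusted p, corrected by Benjamini-Hochberg over all genes tested in the comparison, was under 0.05. Of the 12626 genes tested, 51.2% were called in iSC against mSSC, 26.2% higher and 25% lower, so calls in themselves were common in this comparison. The median log2 fold change of the 6 genes was 0.43, against -0.03 over all genes tested.

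Dmc1 was at 22.1 and 16.9 FPKM in mSSC, 25.7 and 23.5 FPKM in idSG and 71.5 and 42.6 FPKM in iSC. Every iSC library lay above every idSG library and every idSG library above every mSSC library. From mSSC to iSC the mean went from 19.5 ± 3.65 to 57.1 ± 20.5 FPKM, a 2.93-fold rise (log2 fold change 1.47 ± 0.25 SE on the log2(FPKM + 1) scale used for all fold changes, adjusted p = 0.00403). That scale understates the change of genes with low values. Without iSC replicate 2 the log2 fold change was 1.83, and without iSC replicate 1 it was 1.10, both still called.

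Spata22, the single-strand-binding partner of MEIOB, was at 1.69 and 1.54 FPKM in mSSC, 4.11 and 3.58 FPKM in idSG and 45.2 and 24.8 FPKM in iSC. The 3 groups did not overlap. The mean rose 21.7-fold from mSSC to iSC, from 1.61 ± 0.106 to 35.0 ± 14.4 FPKM (a log2 fold change of 3.73 ± 0.28 SE, adjusted p = 0.000389). Without iSC replicate 2 it was 4.15. The value ranged from 3.31 to 4.30 over the alternative settings, and the call held in all of them.

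Brca2, whose product loads the recombinase, was at 18.5 and 16.3 FPKM in mSSC, 15.6 and 15.8 FPKM in idSG and 31.7 and 22.5 FPKM in iSC. The iSC libraries were highest, and the mSSC libraries lay slightly above those of idSG with no overlap. The rise from 17.4 ± 1.51 to 27.1 ± 6.54 FPKM was 1.56-fold (log2 fold change 0.59 ± 0.19 SE, adjusted p = 0.0345). This call was lost in 8 of 18 alternatives, among them the fits without either mSSC replicate, either idSG replicate or iSC replicate 1 and the one scaled to Ddx4 and Dazl (adjusted p from 0.00800 to 0.178 over all alternatives), and without iSC replicate 2 the log2 fold change was 0.83.

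The 2 genes of the HOP2 and MND1 heterodimer parted. Psmc3ip was at 43.7 and 38.5 FPKM in mSSC, 38.0 and 31.0 FPKM in idSG and 21.8 and 21.4 FPKM in iSC. The groups did not overlap and stepped down in that order. From mSSC to iSC the mean fell from 41.1 ± 3.65 to 21.6 ± 0.267 FPKM (a log2 fold change of -0.89 ± 0.15 SE, adjusted p = 0.00350). Mnd1 was at 14.0 and 16.1 FPKM in mSSC, 20.3 and 15.3 FPKM in idSG and 20.5 and 16.3 FPKM in iSC. Its libraries spread within idSG and iSC as far as the groups lay apart. Both iSC libraries lay above both mSSC libraries, the nearest at 16.3 and 16.1 FPKM. The log2 fold change of Mnd1 from mSSC to iSC was 0.27 ± 0.19 SE with a 95% interval from -0.19 to 0.73 (adjusted p = 0.277). The Psmc3ip to Mnd1 ratio of FPKM was 3.13 and 2.40 in mSSC, 1.87 and 2.03 in idSG and 1.07 and 1.31 in iSC, so Psmc3ip transcript moved from well above Mnd1 transcript to near it. No test was run on the ratio.

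Trip13, the HORMA remodeler, was at 49.7 and 43.6 FPKM in mSSC, 37.3 and 30.3 FPKM in idSG and 20.1 and 23.9 FPKM in iSC. The groups stepped down without overlap. The mean fell from 46.6 ± 4.32 to 22.0 ± 2.68 FPKM from mSSC to iSC (log2 fold change -1.05 ± 0.16 SE, adjusted p = 0.00275). The calls of Dmc1, Psmc3ip, Spata22 and Trip13 in this comparison held under all 18 alternatives, including the one scaled to the germ cell genes Ddx4 and Dazl, which gave log2 fold changes of 1.44, -0.92, 3.71 and -1.08. The part of the Sertoli cell transcripts in these changes was not tested beyond that scaling.

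**Figure D2:**
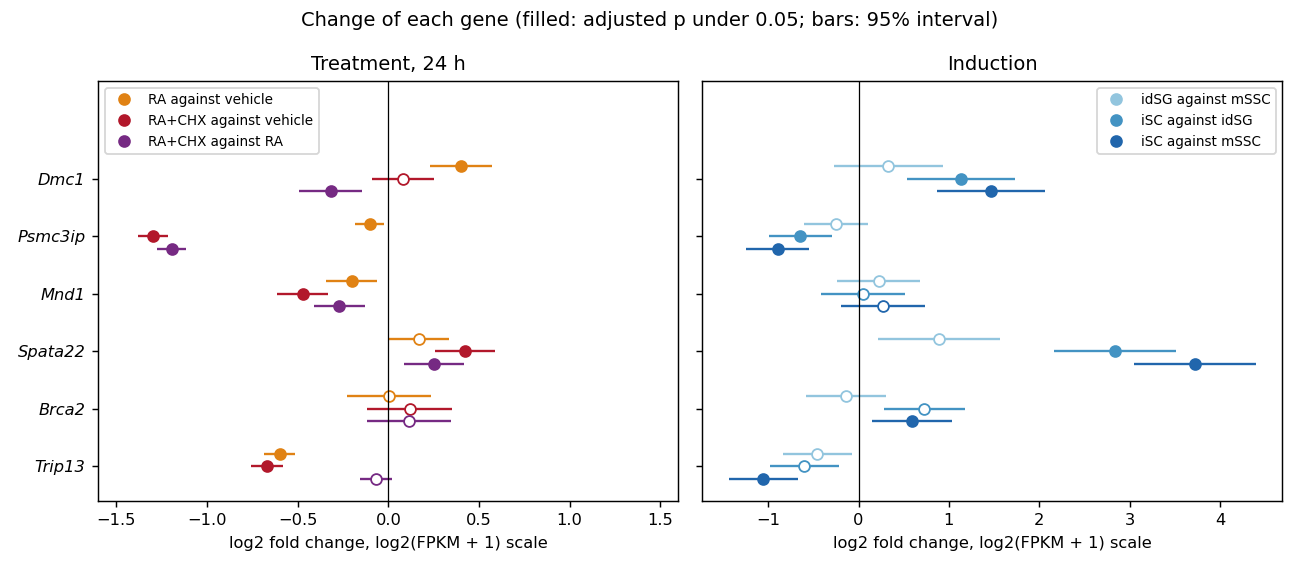
Log2 fold change of each gene on the log2(FPKM + 1) scale (horizontal axes) with its 95% interval in the 3 treatment comparisons and the 3 induction comparisons; filled points have an adjusted p under 0.05. In iSC against mSSC, Spata22 at 3.73 and Dmc1 at 1.47 lie far to the right while Trip13 at -1.05 and Psmc3ip at -0.89 lie to the left.

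By stage, little passed the test between mSSC and idSG. None of the 6 genes was called by limma in idSG against mSSC, where 28.6% of all genes were (17.9% higher and 10.7% lower), and 2 of the 6 had an unadjusted p under 0.05. These were Spata22, with a log2 fold change of 0.89 ± 0.28 SE (adjusted p = 0.0555), and Trip13, with -0.46 ± 0.16 SE (adjusted p = 0.0762). Spata22 was called in 7 of 18 alternatives, one of them the replicate block, which gave 1 called member in this comparison. Its mean was 3.85 ± 0.373 FPKM in idSG against 1.61 ± 0.106 FPKM in mSSC. For the others the 95% intervals of the log2 fold change were -0.27 to 0.93 for Dmc1, -0.60 to 0.10 for Psmc3ip, -0.24 to 0.68 for Mnd1 and -0.58 to 0.31 for Brca2. Of all calls, 62.7% were higher in idSG, against 47.8% after quantile normalization.

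Between idSG and iSC, Spata22 and Dmc1 rose and Psmc3ip fell, where 11.2% of all genes were called (4.46% higher and 6.75% lower). Spata22 rose 9.10-fold (log2 fold change 2.84 ± 0.28 SE, adjusted p = 0.0101) and Dmc1 rose 2.32-fold (1.14 ± 0.25 SE, adjusted p = 0.0393). Psmc3ip went from 34.5 ± 4.99 to 21.6 ± 0.267 FPKM (-0.64 ± 0.15 SE, adjusted p = 0.0423). Brca2, at 0.73 ± 0.19 SE (adjusted p = 0.0518), and Trip13, at -0.60 ± 0.16 SE (adjusted p = 0.0574), fell just short of the threshold. Mnd1 was at 0.05 ± 0.19 SE. Without idSG replicate 1, none of the 6 genes and 10 of all genes were called, and the adjusted p of Spata22 was 0.108. The Dmc1 and Psmc3ip calls were each lost in 9 of 18 alternatives. Without iSC replicate 2, Psmc3ip was at -0.63 (adjusted p = 0.0716), Spata22 at 3.26 and Dmc1 were still called, and Brca2 at 0.97 was called as well (adjusted p = 0.0280). The share of all calls that were higher was 39.8%, against 53.1% after median-ratio scaling and 52.4% after scaling to Ddx4 and Dazl.

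The Dmc1 to Brca2 ratio of FPKM stepped up, from 1.20 and 1.04 in mSSC to 1.65 and 1.49 in idSG and 2.25 and 1.90 in iSC. The 3 groups did not overlap. In the treatment experiment it was 1.03 and 1.10 with vehicle, 1.44 and 1.40 with RA and 1.09 and 0.986 with RA and CHX, so the RA libraries stood above the others.

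**Figure D3:**
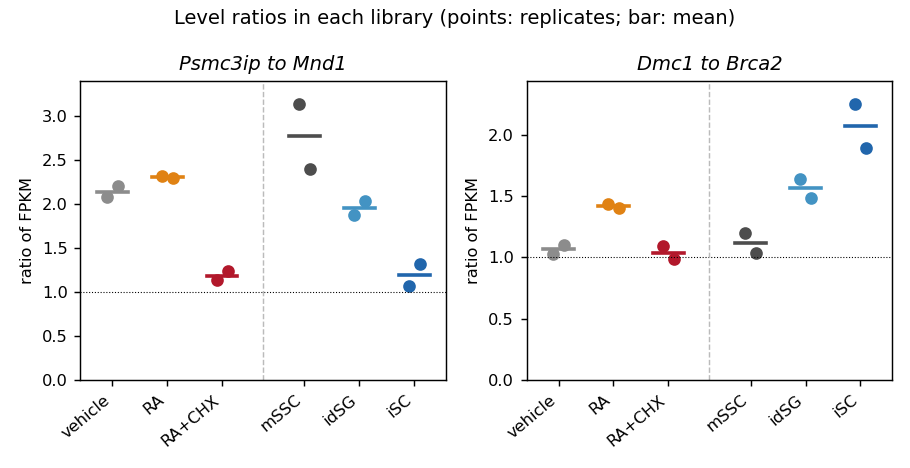
Ratio of FPKM (vertical axes, linear from 0) in each library for Psmc3ip to Mnd1 and Dmc1 to Brca2; points are replicates, bars are means, and the dotted line marks equal levels. Dmc1 to Brca2 is highest in the 2 iSC libraries, at 2.25 and 1.90, and Psmc3ip to Mnd1 is lowest in RA with CHX and iSC.

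The other genes of the pathway were read in lists by role. The meiosis-specific partners of the 6 genes rose together in iSC, where 26.2% of all genes were called higher and 25% lower against mSSC. Against mSSC, 6 of 7 were called higher and 0 lower, with a median log2 fold change of 2.20, and no tested scaling or left-out library gave fewer than 5 higher or any lower. Meiob, the partner of Spata22, was at 2.64 and 3.98 FPKM in mSSC and 30.1 and 17.5 FPKM in iSC (log2 fold change 2.49 ± 0.30 SE, adjusted p = 0.00135). Hormad1, a substrate of TRIP13 on the chromosome axis, was at 18.2 and 18.0 FPKM in mSSC, 43.2 and 36.2 FPKM in idSG and 191 and 117 FPKM in iSC. Hormad1 rose in both steps (log2 fold changes 1.08 ± 0.23 SE and 1.89 ± 0.23 SE, adjusted p = 0.0167 and 0.0161) while Trip13 had log2 fold changes of -0.46 and -0.60 there, neither called. Its call from mSSC to idSG was lost without any 1 of the 4 libraries compared (adjusted p from 0.0652 to 0.0882), and its call from idSG to iSC without idSG replicate 1. Rad51ap2 was at 0.50 and 0.17 FPKM in mSSC and 27.7 and 16.6 FPKM in iSC (log2 fold change 4.09 ± 0.28 SE, adjusted p = 0.000292). Hsf2bp, whose product binds BRCA2 in meiotic cells, was at 10.4 and 11.2 FPKM in mSSC and 24.4 and 14.3 FPKM in iSC (log2 fold change 0.74 ± 0.25 SE, adjusted p = 0.0432), and its call was lost without either mSSC replicate or iSC replicate 1 and under 2 scalings. From mSSC to idSG 2 of the 7 were called higher, and from idSG to iSC 5 of 7, with 0 lower in both. Of all genes, 17.9% were called higher and 10.7% lower in the first step, and 4.46% and 6.75% in the second. The 2 calls from mSSC to idSG, Rad51ap2 and Hormad1, were both lost whichever of the 4 libraries compared was left out. Without idSG replicate 1 none of the 7 was called from idSG to iSC, where 10 of all genes were. Without iSC replicate 2, the log2 fold changes from mSSC to iSC were 2.87 for Meiob, 3.33 for Hormad1, 4.44 for Rad51ap2 and 1.11 for Hsf2bp, and 7 of the 7 were called higher.

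Among repair genes that also serve recombination in dividing cells, called general partners here, more fell than rose. Of 21 tested, 2 rose, 8 fell and 11 did not pass the test from mSSC to iSC, where 26.2% of all genes were called higher and 25% lower. They had a median log2 fold change of -0.36. Under the scalings and single-library omissions tested, 1 to 2 were called higher and 5 to 10 lower. Rad54l, a DNA translocase gene, went from 30.4 ± 1.35 to 13.3 ± 0.633 FPKM (a log2 fold change of -1.14 ± 0.14 SE, adjusted p = 0.00159). Rpa2, a subunit of the single-strand-binding complex RPA, went from 133 ± 2.16 to 60.8 ± 14.1 FPKM (-1.13 ± 0.22 SE, adjusted p = 0.00609). The 2 that rose were Rad51b (0.802 ± 0.0363 to 2.65 ± 0.0531 FPKM) and Rad51d (1.86 ± 0.106 to 3.63 ± 0.298 FPKM). The Rad51d call was lost under quantile normalization, scaling to Ddx4 and Dazl, and without either mSSC replicate or iSC replicate 1.

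**Figure D4:**
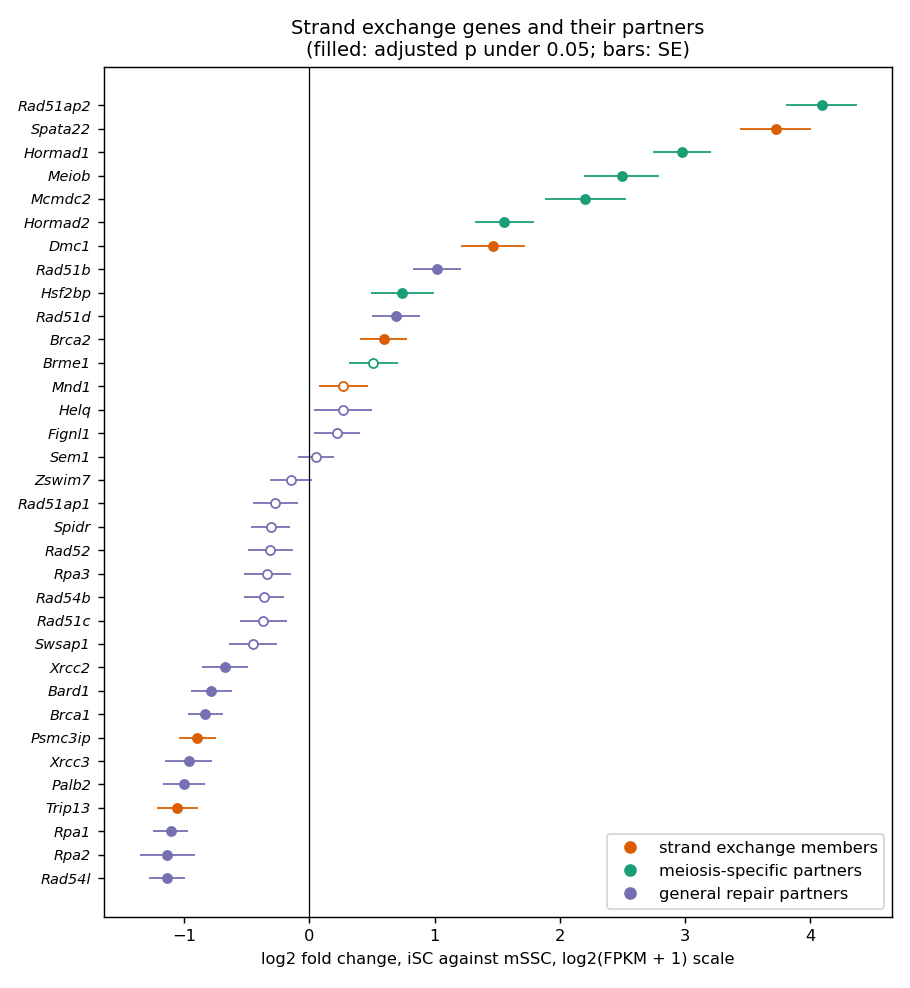
Log2 fold change from mSSC to iSC on the log2(FPKM + 1) scale (horizontal axis) with SE for the 6 strand exchange genes, their meiosis-specific partners and the general repair partners; filled points have an adjusted p under 0.05. Meiosis-specific partners lie to the right, from Hsf2bp at 0.74 to Rad51ap2 at 4.09 among those called, and Psmc3ip and Trip13 lie on the left among falling general partners such as Rad54l at -1.14.

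Upstream and downstream of strand exchange, break formation genes and crossover genes were more often called higher than lower in iSC in the main fit. Of 12 genes of break formation and end processing, 6 rose and 1 fell against mSSC, beside 26.2% of all genes called higher and 25% lower. Without mSSC replicate 2, and likewise without iSC replicate 1, Mei4, Iho1 and Atm lost their calls and 3 were higher, without iSC replicate 2 there were 7, and quantile normalization and scaling to Ddx4 and Dazl each gave 4. Prdm9, the histone methyltransferase that places the breaks, was at 0.975 and 0.857 FPKM in mSSC, 3.80 and 3.93 FPKM in idSG and 54.5 and 30.5 FPKM in iSC (log2 fold change from mSSC to iSC 4.45 ± 0.28 SE, adjusted p = 0.000254). Spo11, the break-forming nuclease, was at 1.52 and 1.20 FPKM in mSSC, 0.672 and 0.539 FPKM in idSG and 6.44 and 4.27 FPKM in iSC (1.41 ± 0.24 SE, adjusted p = 0.00392). The resection nuclease Exo1 was the 1 that fell (-0.82 ± 0.17 SE, adjusted p = 0.00727), a call lost without mSSC replicate 1. Of 10 crossover genes, 4 rose and 1 fell, so 50% were called, near the 51.2% of all genes. The helicase gene Hfm1 rose from 2.03 ± 0.512 to 22.0 ± 7.10 FPKM (2.90 ± 0.26 SE, adjusted p = 0.000609), and Prr19, needed for crossover sites in mice, fell from 33.3 ± 0.922 to 13.3 ± 0.0330 FPKM (-1.26 ± 0.18 SE, adjusted p = 0.00225). The counts of crossover genes called higher lay between 1 and 6 over the single-library omissions, with 1 lower in each. Without iSC replicate 2 the log2 fold changes were 4.86 for Prdm9, 1.66 for Spo11 and 3.22 for Hfm1. Of the mitotic partners of TRIP13, Mad2l1 fell from 81.2 ± 0.564 to 50.7 ± 1.02 FPKM (-0.67 ± 0.16 SE, adjusted p = 0.0120), a call lost without either mSSC replicate.

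Dmc1, Spata22, Brca2, Meiob, Hormad1, Rad51ap2, Hsf2bp, Prdm9, Spo11 and Hfm1 were each higher in iSC replicate 1 than in replicate 2. The ratio of replicate 1 to replicate 2 was 1.68 for Dmc1, 1.82 for Spata22, 1.41 for Brca2, 1.72 for Meiob, 1.59 for Hfm1 and 1.51 for Spo11. Replicate 1 was also the library with less Gfra1 and Zbtb16. Its Sertoli sum was lower as well (1456 against 2389 FPKM), most of it Clu (1212 against 2111 FPKM). Of that list, Wt1, Gata4, Inhbb and Amhr2 were slightly higher in replicate 1. The part of these differences in the spread was not tested. Psmc3ip, by contrast, had a replicate ratio of 1.02 in iSC.

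RA alone for 24 h gave log2 fold changes between -0.60 and 0.40 for the 6 genes. Dmc1 rose and Trip13 fell, Psmc3ip and Mnd1 were slightly lower, and Spata22 and Brca2 did not pass the test. Of the 12339 genes tested, 52.7% were called in RA against vehicle (22.8% higher and 29.9% lower), against 1 of the 6 higher and 3 lower, and the replicates of this experiment lay close together. Of all calls, 43.3% were higher, against 55.2% after quantile normalization and 62.5% after scaling to Ddx4 and Dazl.

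Dmc1 was at 15.8 and 17.4 FPKM with vehicle and 21.7 and 22.9 FPKM with RA. The groups did not overlap, and the rise was 1.34-fold (log2 fold change 0.40 ± 0.07 SE, adjusted p = 0.00354). Trip13 was at 45.3 and 43.1 FPKM with vehicle and 29.3 and 28.4 FPKM with RA (-0.60 ± 0.04 SE, adjusted p = 4.89e-05). Both stand in the direction they took in iSC. Trip13 was called under all 18 alternatives, and Dmc1 under all but the fit on all 12 libraries (adjusted p = 0.297), in which the wider spread of the induction libraries is shared.

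Psmc3ip was at 32.3 and 32.7 FPKM with vehicle and 30.0 and 30.4 FPKM with RA (-0.10 ± 0.03 SE, adjusted p = 0.0373). This small difference lost its call in 12 of 18 alternatives, every single-library omission included. Mnd1 was at 15.6 and 14.9 FPKM with vehicle and 13.0 and 13.2 FPKM with RA (-0.20 ± 0.06 SE, adjusted p = 0.0251), and it lost its call in 6 of 18, among them those without vehicle replicate 1 or either RA replicate. Spata22, at 1.66 and 1.52 FPKM with vehicle and 1.91 and 1.92 FPKM with RA, had a log2 fold change of 0.17 ± 0.07 SE (adjusted p = 0.0767). Its groups did not overlap, and the 95% interval ran from 0.0057 to 0.33. Spata22 was called higher in 2 of 17 alternatives, those without the trend and with scaling to Ddx4 and Dazl. Brca2, at 15.4 and 15.8 FPKM with vehicle and 15.0 and 16.3 FPKM with RA, overlapped between groups and had a 95% interval from -0.23 to 0.24.

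Of the 6 meiosis-specific partners tested, Rad51ap2 alone was called, from 0.629 ± 0.00414 to 1.69 ± 0.177 FPKM (0.72 ± 0.08 SE, adjusted p = 0.000570). Meiob (0.24 ± 0.10 SE, adjusted p = 0.0843), Hsf2bp (0.05 ± 0.06 SE) and Hormad1 (0.12 ± 0.08 SE) did not pass the test. Prdm9 rose from 1.00 ± 0.149 to 2.87 ± 0.151 FPKM (0.95 ± 0.08 SE, adjusted p = 0.000161). Of 21 general partners, 2 were higher and 4 lower, where 22.8% of all genes were called higher and 29.9% lower. The counts were 5 higher and 3 lower after quantile normalization, and 4 higher and 2 lower after scaling to Ddx4 and Dazl. Of 11 genes of break formation 2 were higher and 1 lower, but 6 higher and 0 lower after that scaling, and 1 higher with any single library of the comparison left out. Of 10 crossover genes 4 were higher and 2 lower, and 6 higher and 2 lower after that scaling. Neither of the 2 mitotic partners of TRIP13 was called by limma, and 1 had an unadjusted p under 0.05.

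The fold changes of the 6 genes against vehicle spread wider with RA and CHX than with RA. So did those of all genes, with a median absolute log2 fold change of 0.37 with RA and CHX and 0.16 with RA. Of the 6 genes, 66.7% were called in RA with CHX against vehicle. Psmc3ip fell by far the most, Trip13 and Mnd1 also fell, and Spata22 rose, all against vehicle, where 79.3% of all genes were called (36.1% higher and 43.2% lower). Between RA with CHX and RA alone the share called was 77.6% (35.1% higher and 42.5% lower). Both comparisons with vehicle share the same 2 vehicle libraries. Of all calls, 45.5% were higher against vehicle and 45.3% against RA, but 20.4% and 14.4% after scaling to Ddx4 and Dazl, which shifted every gene by -0.34 and -0.42 on the log2 scale. Ddx4 itself was at 166 ± 3.88 FPKM with vehicle, 161 ± 4.46 FPKM with RA and 238 ± 0.176 FPKM with RA and CHX. Dazl was at 585 ± 0.980, 539 ± 4.43 and 652 ± 24.8 FPKM in that order. Both were called higher with RA and CHX, so that scaling also divides out the change of these 2 genes themselves.

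Psmc3ip was at 12.8 and 12.5 FPKM with RA and CHX, below the libraries of every other group. It was 2.57-fold lower than with vehicle (log2 fold change -1.30 ± 0.03 SE, adjusted p = 1.25e-07) and fell also against RA alone (-1.19 ± 0.03 SE, adjusted p = 3.02e-07). Both calls held under all 18 alternatives. Mnd1, its partner, was at 11.3 and 10.1 FPKM, a smaller fall against vehicle (-0.47 ± 0.06 SE, adjusted p = 0.000215) and against RA (-0.27 ± 0.06 SE, adjusted p = 0.00430). The call against RA was lost under quantile normalization (-0.12) and in the fit on all 12 libraries. The Psmc3ip to Mnd1 ratio was 2.07 and 2.20 with vehicle, 2.31 and 2.30 with RA and 1.13 and 1.24 with RA and CHX.

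Trip13 was at 27.6 and 27.3 FPKM with RA and CHX, lower than with vehicle (-0.67 ± 0.04 SE, adjusted p = 2.86e-06) and with a log2 fold change of -0.07 ± 0.04 SE against RA alone (95% interval -0.16 to 0.02). After scaling to Ddx4 and Dazl that last value was -0.47 and called. Dmc1 was at 16.5 and 18.9 FPKM, below both RA libraries (-0.32 ± 0.07 SE against RA, adjusted p = 0.00512, not called in the fit on all 12 libraries). Against vehicle Dmc1 overlapped, at 0.08 ± 0.07 SE with a 95% interval from -0.09 to 0.25. That value was called higher after quantile normalization (0.22) and lower after scaling to Ddx4 and Dazl (-0.24), so its direction depends on the scaling.

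Spata22 was at 2.56 and 2.38 FPKM with RA and CHX, above all vehicle and RA libraries, and rose against vehicle (0.42 ± 0.07 SE, adjusted p = 0.000929; not called in the fit on all 12 libraries). Against RA it was also called higher (0.25 ± 0.07 SE, adjusted p = 0.0124), but the value was -0.035 after scaling to Ddx4 and Dazl, and the call was lost without replicate 1 of RA with CHX. Brca2 was at 15.1 and 19.2 FPKM, libraries that span the vehicle and RA values (0.12 ± 0.10 SE against vehicle, 95% interval -0.12 to 0.35).

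Among the partners, 5 of 6 meiosis-specific genes rose and 1 fell in RA with CHX against vehicle, counts that were the same under each scaling. Of all genes, 79.3% were called in that comparison (36.1% higher and 43.2% lower). The share called was 66.7% of the general partners, 81.8% of the break formation genes and 100% of the meiosis-specific and crossover genes. Meiob rose from 2.32 ± 0.137 to 4.46 ± 0.764 FPKM (0.71 ± 0.10 SE, adjusted p = 0.000430), Hsf2bp from 11.1 ± 0.0555 to 16.6 ± 0.570 FPKM and Hormad1 from 15.2 ± 1.62 to 22.7 ± 0.0129 FPKM. Hormad2 was the 1 that fell, and against RA it was 2.04-fold lower (-0.91 ± 0.10 SE, adjusted p = 0.000138). Of 21 general partners 7 were higher and 7 lower against vehicle, but 2 higher and 17 lower after scaling to Ddx4 and Dazl. The helicase gene Helq rose from 6.60 ± 0.583 to 16.0 ± 0.337 FPKM and Zswim7, of the Shu complex, from 43.1 ± 0.634 to 70.5 ± 2.03 FPKM, while Rad54l was 2.06-fold lower than with RA and Rpa2 1.65-fold lower than with vehicle. Of 11 genes of break formation 7 were higher and 2 lower, Rad50 rising 1.79-fold and Exo1 being 1.79-fold lower. Of 10 crossover genes 7 were higher and 3 lower. Scaling to Ddx4 and Dazl gave 5 higher and 4 lower for break formation, its median log2 fold change going from 0.41 to 0.077, and 4 higher and 3 lower for crossover, from 0.32 to 0.0069. Tex11 rose 2.07-fold against RA and Msh4 2.25-fold against vehicle, and both mitotic partners of TRIP13, Mad2l1 (-0.40 ± 0.05 SE) and Mad2l1bp (-0.39 ± 0.05 SE), fell against vehicle.

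Across all 6 groups, levels can be ordered only with the limit that the sources do not say whether the 2 experiments were scaled together. Dmc1 and Spata22 were highest in iSC and next in idSG, and for both the libraries of these neighbours did not overlap. Brca2 was highest in iSC. Psmc3ip was highest in mSSC and lowest in RA with CHX, with iSC the next lowest. Trip13 was lowest in iSC. Mnd1 was lowest in RA with CHX, and its iSC, idSG, vehicle and mSSC libraries, neighbours in that order, overlapped.

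The genes most like each member were found by Pearson's r of log2(FPKM + 1) over the 12 libraries, after each experiment was centred on its own mean. They were sought among 8930 genes averaging 5 FPKM or more, with small RNA genes and unnamed gene models left out. Meiob and other genes listed under such model symbols could therefore not appear. The libraries share their groups and the large step to iSC, so r is a description. For Spata22 they were Ccne2 (0.991), Dmrtc2 (0.990) and Ccnb3 (0.989). For Dmc1 they were Zbtb41 (0.982), Xlr4c (0.977) and Ugt8a (0.973). For Psmc3ip they were Arl6ip4 (0.993), Apba3 (0.992) and Stk11 (0.990), and for Trip13 Tcfap4 (0.982), Srpk2 (0.980) and Tmco6 (0.973). For Brca2 they were March6 (0.951), Lcorl (0.949) and Hook3 (0.945), and for Mnd1 Nhp2l1 (0.912), Dnajc19 (0.907) and Vti1b (0.903). Among the members, Dmc1 went with Spata22 (0.934) and Brca2 (0.865), and Psmc3ip with Trip13 (0.739) more than with its partner Mnd1 (0.394). Dmc1 ran against Trip13 (-0.800).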

How the data were processed

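Per the labels' protocols, TRIZOL-extracted, DNase I-treated RNA of 12 libraries was read on an Illumina HiSeq. The deposited values are FPKM per gene. Per the submitters' processing notes, the authors used TopHat2 2.0.6, Cuffdiff and the mm9 assembly. The sources used here do not give the version, scaling or strand settings of Cuffdiff. Absolute depth is unknown, so no counting interval is given. The spacing of low FPKM values put each library at 83.9% to 99.4% of the first library of its experiment, from as few as 17 matching genes.

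One vehicle file repeats 25 lines, none of them a member, which were counted once. The test ran on log2(FPKM + 1) of genes whose mean over an experiment's 6 libraries reached 1 FPKM. Each experiment was fitted apart in limma 3.58.1 (R 4.3.3) with an eBayes trend and group as the factor, which leaves 3 residual degrees of freedom. Calls used an adjusted p (Benjamini-Hochberg, over all genes tested) under 0.05. Python 3.11.15 with numpy 2.4.6, pandas 2.3.3, scipy 1.17.1 and matplotlib 3.10.9 was used for the rest, and the fit was tested on simulated data. Older symbols were matched through RefSeq names, which gave Meiob, Mcmdc2, Rad51b, Rad51d and others. Promoter windows are RefSeq's on GRCm38.p6.

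The members and lists were chosen with earlier results of these data known. Named genes are the 6 members, up to 2 called genes with the highest and 2 with the lowest fold change per list and experiment, and Meiob, Hsf2bp, Hormad1, Spo11 and Prdm9 whatever their values. A further gene of this rule, and the ratio and list entry that used it, are not reported here. Marker genes shown were taken from the marker lists, and the germ cell genes among them after their values were seen. The settings varied were the pseudocount (0.1 and 0.5), the filter (none, or 5 FPKM), the copy of a symbol used, the trend, the replicate block, the scaling (median-ratio or quantile normalization), the libraries fitted (the 2 groups alone, or all 12) and each library in turn left out. Scaling to Ddx4 and Dazl was added after seeing the data. All these settings were run for the 6 members. For the lists and their genes, only the scalings and the omission of each library of the 2 groups compared were run. The libraries of the remaining group of the experiment were always kept there.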

Additional observations from a re-analysis of the deposited data

How the results depend on the processing

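Over 645 recomputed fold changes of the 6 genes, 561 kept direction and side of the threshold, 52 lost a call, 21 gained one and 11 changed sign. Of the 20 called fold changes, 1 changed sign. The reasons were not tested unless stated. Scaling to Ddx4 and Dazl gave log2 fold changes of -0.24 for Dmc1 and -0.20 for Brca2 in RA with CHX against vehicle, and -0.035 for Spata22 and -0.28 for Brca2 against RA. The other changes of sign were in uncalled values with a library left out. Over these omissions Brca2 ran from -0.050 to 0.059 in RA against vehicle, with a negative sign without vehicle replicate 1 or RA replicate 2. In RA with CHX against vehicle Dmc1 ran from -0.011 to 0.18 and Brca2 from -0.044 to 0.28, and against RA Brca2 ran from -0.048 to 0.28, each negative without replicate 2 of RA with CHX. Mnd1 in iSC against idSG ran from -0.15 to 0.24 and was negative without idSG replicate 2 or iSC replicate 1.

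The fit on all 12 libraries, which shares one spread between experiments, called 1 of the 6 genes in RA against vehicle, 1 in RA with CHX against RA, 2 in idSG against mSSC and 5 in iSC against idSG. It called 510, 6290, 5858, 6562 and 5272 of all genes in RA and in RA with CHX against vehicle, RA with CHX against RA, idSG against mSSC and iSC against idSG, where the fit by experiment called 6503, 9788, 9573, 3613 and 1415. In idSG against mSSC, pseudocounts of 0.1 and 0.5, the replicate block and the 2 groups alone each called 1 member, and scaling to Ddx4 and Dazl called 1988 of all genes. In iSC against idSG, no filter, no trend, the 2 groups alone and scaling to Ddx4 and Dazl each called 1 member. All genes called there were 623 with no filter, 911 with the replicate block, 151 with the 2 groups alone and 254 after scaling to Ddx4 and Dazl.

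With a library left out, the group with a lone library is assumed to vary like the others. Members called then were 2 to 3, 4 to 5, 4, 0 to 1, 0 to 3 and 4 to 5 in RA and RA with CHX against vehicle, RA with CHX against RA, idSG against mSSC, and iSC against idSG and mSSC. All genes called were 5088 to 6024, 8976 to 9775, 8671 to 9591, 942 to 4199, 10 to 1557 and 3442 to 6302 in that order. Replicate numbers were not treated as pairs in the main fit. Deviations of same-numbered libraries correlated across genes at -0.03 to 0.09, which cannot show whether they shared a culture or batch. Among member counts the block changed that of idSG against mSSC. Spata22 has no value in the treatment experiment with the filter at 5 FPKM. Depth is unknown, which leaves the error of low values such as Spata22 in mSSC unstated.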

Other observations

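Among DNA replication genes, which mark cells copying their genome, more fell than rose from mSSC to iSC. Of 23 tested, 15 fell, 1 rose and 7 did not pass the test, where 25% of all genes were called lower and 26.2% higher, with a median log2 fold change of -0.66 against -0.03 over all genes, and under the scalings and single-library omissions tested 7 to 15 were called lower, the fewest without mSSC replicate 1. Cdt1, a licensing factor, fell from 62.8 ± 4.98 to 18.8 ± 5.90 FPKM (-1.72 ± 0.22 SE, adjusted p = 0.00162), and Mcm2, a subunit of the replicative helicase, from 149 ± 8.41 to 57.1 ± 8.57 FPKM (-1.38 ± 0.16 SE, adjusted p = 0.00133). Ccne2, which encodes cyclin E2, was the 1 that rose, from 4.73 ± 0.843 to 27.8 ± 8.11 FPKM (2.31 ± 0.23 SE, adjusted p = 0.000878). From mSSC to idSG limma called none of the 23, with 4 at an unadjusted p under 0.05 and 2 called after quantile normalization. Of all genes, limma called 28.6% in that step, and 6.75% lower and 4.46% higher from idSG to iSC. From idSG to iSC 9 fell and 1 rose, and without idSG replicate 1 none was called.

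With RA, 10 of the 23 fell and 2 rose against vehicle, beside 29.9% of all genes called lower and 22.8% higher. After quantile normalization 5 fell and 3 rose. With RA and CHX 12 fell and 5 rose against vehicle, beside 43.2% of all genes called lower and 36.1% higher. In total 73.9% of the list was called there, against 79.3% of all genes. Scaling to Ddx4 and Dazl gave 19 lower and 1 higher, with a median log2 fold change of -0.49 in place of -0.15. Rrm2, a subunit of ribonucleotide reductase, fell from 70.4 ± 1.71 to 19.9 ± 0.587 FPKM (-1.77 ± 0.04 SE, adjusted p = 5.03e-08) and Gins2, of the replicative helicase complex, from 14.4 ± 0.706 to 4.48 ± 0.143 FPKM. Pola1, of the primase complex, rose from 5.86 ± 0.0314 to 13.4 ± 0.347 FPKM (1.07 ± 0.05 SE, adjusted p = 1.58e-06, and 0.76 after that scaling).

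Transcripts of other somatic cells were read beside the Sertoli list. Summed over 9 peritubular and fibroblast genes, FPKM was 91.7 to 138 in the treatment libraries, 122 and 263 in mSSC, 592 and 820 in idSG and 1111 and 1351 in iSC. Vim, which is also made by other cells, Sertoli cells among them, gave 373 and 662 of the idSG sums and 604 and 971 of the iSC sums. Acta2, Myh11, Col1a1, Col1a2 and Col3a1 also had higher means in iSC than in mSSC. Acta2 went from 0.693 ± 0.635 to 218 ± 93.2 FPKM and Col1a2 from 17.0 ± 9.66 to 47.7 ± 9.63 FPKM. Lum (2.58 and 18.9 FPKM in mSSC, 0.944 and 1.46 FPKM in iSC), Pdgfra (means of 5.30 and 1.16 FPKM) and Dcn (means of 23.5 and 15.4 FPKM) were lower in iSC than in mSSC. Of the 8 tested, 4 were called higher and 1 lower in iSC against mSSC, beside 26.2% and 25% of all genes. Over 6 Leydig genes the sum was 1.76 to 2.61 in the treatment libraries and mSSC, 35.4 and 73.0 in idSG and 147 and 102 in iSC, with Lhcgr listed at 0 in both idSG libraries. Star alone gave 33.6 and 70.6 of the idSG sums and 141 and 93.2 of the iSC sums. Cyp11a1 reached 4.07 and 6.76 FPKM in iSC, while Cyp17a1, Insl3 and Lhcgr stayed under 0.5 FPKM in every library. Over 6 macrophage genes it was 3.22 to 8.02 and over 5 endothelial genes 2.15 to 9.10 in the 12 libraries.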
